A study of Mus musculus with 6 samples.

Results

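Calcium handling in mouse vascular smooth muscle cells was examined through 10 genes that fill, empty and refill the intracellular calcium stores: the store pump Atp2a2, the inositol trisphosphate (IP3) receptors Itpr1, Itpr2 and Itpr3, the store sensors Stim1 and Stim2, the plasma membrane channel Orai1, the plasma membrane pumps Atp2b1 and Atp2b4, and the mitochondrial uniporter Mcu. The genes form a fixed list of symbols, drawn up with earlier results of these data known. All 10 were found among the 54532 genes measured. Of these 10, 9 had a mean of at least 0.5 FPKM (read fragments scaled by gene length and by the size of the library) over the libraries and were tested with 13423 genes in all.

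RNA-seq was performed on 6 libraries of cultured cells with a wild-type genotype: 3 labelled as transduced with a control adenoviral vector (Ad-Con) and 3 with an adenoviral vector for pyruvate dehydrogenase kinase 4 (Ad-PDK4). According to the methods of the study, the cells were isolated from the abdominal aortas of young adult wild-type mice, passaged in culture, and treated with angiotensin II after transduction in both groups, so no library here represents cells without this agent. Those methods also describe a PDK4 plasmid, made with the primer pair listed for mouse PDK4 and an HA tag in the vector pEnCMV, without saying whether the adenovirus carries the same insert. The labels give neither the insert nor its promoter. The comparison asks how PDK4 overexpression changes the transcriptome of these cells. The study calls the 3 libraries of a group biological replicates. The labels do not say whether they came from separate cultures or animals, and if they did not, the p-values measure only the spread between these samples, which may then be technical.

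Between 17588942 and 21861872 reads per library were assigned to genes. Mouse Pdk4 itself, a kinase that inhibits the pyruvate dehydrogenase complex, was not higher in the libraries labelled Ad-PDK4. Pdk4 had 679, 642 and 646 reads in Ad-Con and 490, 455 and 572 reads in Ad-PDK4 (10.0 ± 0.469 against 7.48 ± 0.162 FPKM, mean ± SD, n = 3; limma log2 fold change -0.42, adjusted p = 1.1e-03). The group names below are therefore those of the labels only, and a gene called higher or lower is so in the libraries that carry the Ad-PDK4 label.

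The markers only partly matched the labelled cell type. Of 12 smooth muscle markers, 10 had more than 3 reads in every library, and their summed level was 257 to 261 FPKM in Ad-Con and 219 to 236 FPKM in Ad-PDK4. Several were abundant: Acta2, smooth muscle actin, had 78.0 ± 0.950 FPKM in Ad-Con, and Tpm1, Cald1, Tpm2 and Myl9 had between 15.4 and 71.7 FPKM there. Acta2 fell to 36.2 ± 2.40 FPKM in Ad-PDK4 (log2 fold change -1.11, limma adjusted p = 5.3e-06). Other contractile markers were close to absent: Myh11, the smooth muscle myosin heavy chain, had 2 to 10 reads per library, Tagln 4 to 20 reads, and Cnn1 8 to 30 reads. All the markers named here were singled out after their values were seen. The 6 fibroblast markers were detected in every library, with summed levels of 1430 to 1555 FPKM in Ad-Con and 738 to 805 FPKM in Ad-PDK4. Of those 6, 4 were lower and 1 was higher in Ad-PDK4. Of the 7 smooth muscle markers that were tested, 1 was higher (Cald1) and 2 were lower (Acta2 and Tpm2). Among all tested genes, 21.8% were higher and 20.8% lower. The other smooth muscle markers were under the filter and not tested. Of these, Mylk had 188, 168 and 122 reads in Ad-Con and 27, 28 and 24 reads in Ad-PDK4. Des and Cnn1 were also lower in every Ad-PDK4 library than in any Ad-Con library, whereas Myh11 and Tagln overlapped between the groups. The 6 endothelial markers summed to 0.617 to 0.798 FPKM in Ad-Con and 0.885 to 1.18 FPKM in Ad-PDK4, with Tek and Tie1 at 3 reads or fewer throughout. Of 8 macrophage markers, Adgre1, Ptprc, Tyrobp, C1qa and Laptm5 were at 3 reads or fewer in every library, and the sum was 26.2 to 29.4 FPKM in Ad-Con and 22.5 to 25.5 FPKM in Ad-PDK4. Most of that sum came from the 2 tested markers, which changed in opposite directions. Cd68 fell from 14.2 to 4.24 FPKM (log2 fold change -1.74, limma adjusted p = 4.4e-04). Cd14 rose from 12.8 to 18.8 FPKM (log2 fold change 0.55, limma adjusted p = 2.7e-04). In bulk RNA, a change in the number of cells of a type and a change in RNA per cell cannot be told apart, and the part of cell makeup in the differences below was not tested.

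The store of the endoplasmic reticulum is the main source of releasable calcium in smooth muscle. Agonists such as angiotensin II activate phospholipase C, which produces IP3, and IP3 opens the IP3 receptors and lets calcium flow into the cytosol, where it drives contraction and signalling. SERCA pumps return calcium to the store, plasma membrane pumps expel it, and mitochondria take up part of it through the uniporter. When the store empties, STIM proteins in its membrane sense the loss and open ORAI channels in the plasma membrane, a route known as store-operated calcium entry.

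Orai1 and Itpr1 were higher in Ad-PDK4, Itpr3 was lower, and the other 6 tested genes did not pass the test at an adjusted p below 0.05. The background was high: 21.8% of all tested genes passed the test as higher and 20.8% as lower, so 2 higher and 1 lower of 9 is close to or below the share among all genes. None of the 9 changed by at least 2-fold, which 6.63% of all tested genes did in either direction. The 3 libraries of one group lay wholly above those of the other in 7 of the 9 genes, against 54.3% of all tested genes. The median log2 fold change of the 9 was -0.02, and that of all tested genes was -0.003.

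**Figure D1:**
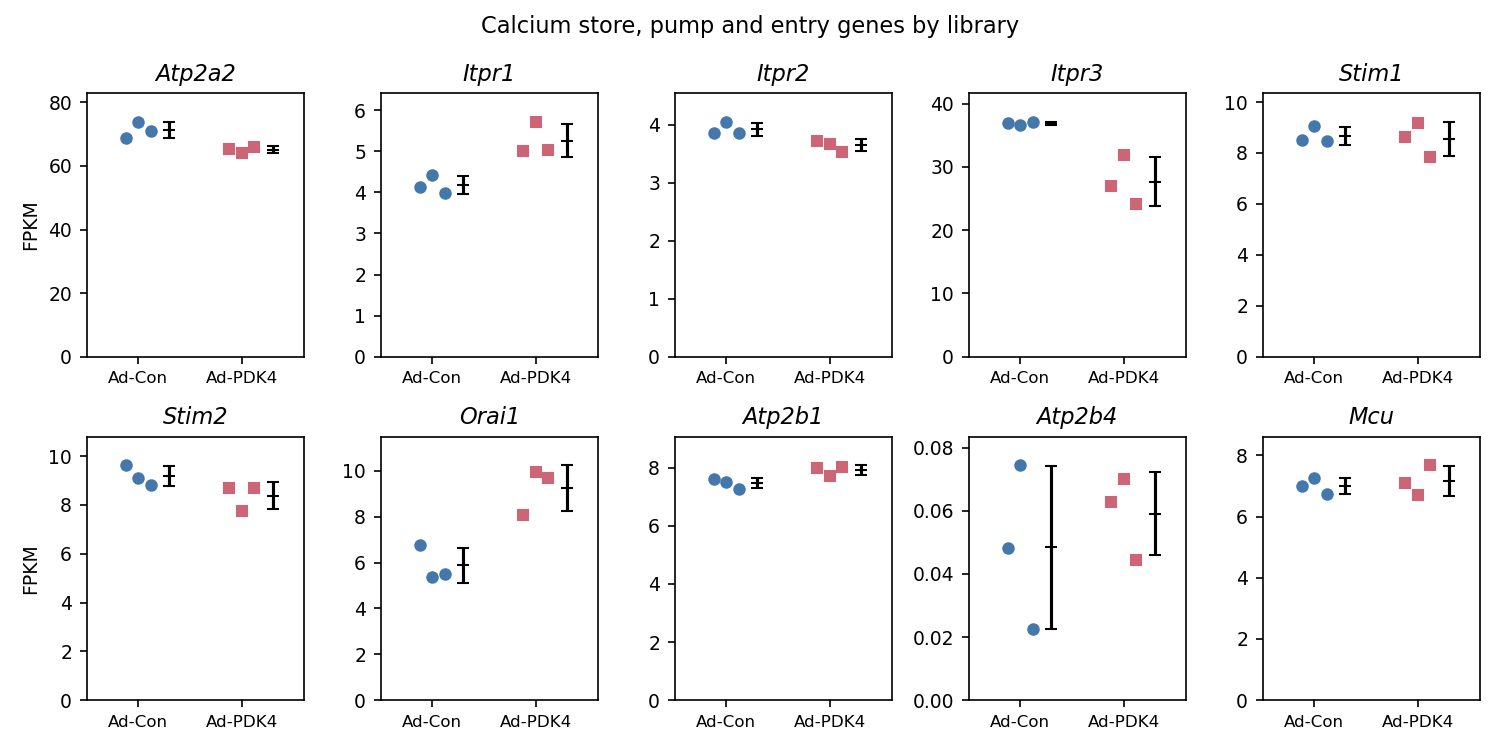
Level of each of the 10 genes in FPKM (vertical axes, from 0, each with its own scale) in the 3 Ad-Con libraries (circles) and the 3 Ad-PDK4 libraries (squares), with the mean and SD of each group as a bar. The Orai1 and Itpr1 points of Ad-PDK4 all lie above those of Ad-Con, the Itpr3 points all lie below, and the Stim1, Atp2b4 and Mcu points overlap.

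Of the 10 genes, 8 had a promoter in the RefSeq table for GRCm38.p6 (Atp2a2 and Itpr1 had no entry, and Atp2b1 had 2 starts). The 250 bases before the start of Itpr3 and Orai1 are shown because these genes changed in opposite directions, by the widest margins among the 10. The Itpr3 sequence is chr17:27057054-27057303 and the Orai1 sequence is chr5:123014824-123015073, both on the plus strand and read 5′ to 3′. Capitals mark a match to the NF-kB motif GGGNNTTNC, and lower case marks the rest.
Itpr3: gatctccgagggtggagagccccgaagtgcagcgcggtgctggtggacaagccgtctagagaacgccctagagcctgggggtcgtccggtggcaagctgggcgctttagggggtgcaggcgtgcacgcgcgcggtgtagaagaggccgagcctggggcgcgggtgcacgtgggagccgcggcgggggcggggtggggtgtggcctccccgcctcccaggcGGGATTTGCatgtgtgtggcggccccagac
Orai1: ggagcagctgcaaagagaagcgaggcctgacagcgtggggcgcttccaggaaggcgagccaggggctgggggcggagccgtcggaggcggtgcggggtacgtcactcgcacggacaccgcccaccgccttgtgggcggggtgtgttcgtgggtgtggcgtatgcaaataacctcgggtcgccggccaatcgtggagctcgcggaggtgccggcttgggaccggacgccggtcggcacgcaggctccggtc

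Both promoters were rich in G and C. The GC content was 72.0% for Itpr3 and 70.8% for Orai1, and 45.6% to 80.8% over the 9 promoters of these genes, against a median of 52.4% over 32841 promoters of the same length. The lowest value was that of Atp2b4, whose RefSeq start lies 47294 bases from the start of the gene in the deposited table. Searched on both strands, the NF-kB motif matched the promoters of Itpr3, Mcu and Stim2, and 13.0% of all promoters. The NFAT motif GGAAAA, present in 20.4% of all promoters, matched none of the 9. The interferon response core GAAANNGAA (7.13% of all promoters), the cyclic AMP response element TGACGTCA (1.55%) and the ER stress response element ERSE (0.113%) also matched none. The shares over all promoters were not matched to these 9 for GC content, so they are no like-for-like background. A match is a run of letters and not a measured binding site.

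Atp2a2 encodes SERCA2, the pump that refills the store, and was by far the most abundant of the 10 genes. The gene lies at chr5:122453513-122502225 on the minus strand (GRCm38, as are all coordinates here). Its levels were 68.8, 73.9 and 71.0 FPKM in Ad-Con and 65.2, 64.0 and 66.1 FPKM in Ad-PDK4. Every Ad-PDK4 library was below every Ad-Con library, but the difference was small and missed the threshold (log2 fold change -0.13, 95% interval -0.24 to -0.02, limma adjusted p = 0.057). A linear model of the recovered reads and quantile normalization both let it pass, with adjusted p over all alternatives ranging from 0.0372 to 0.171. Among the SERCA genes Atp2a2 made up 99.5 ± 0.0942% of the summed FPKM in Ad-Con and 99.7 ± 0.147% in Ad-PDK4, a share computed after the levels were seen. Atp2a3, another SERCA pump, had 36, 23 and 20 reads in Ad-Con and 15, 19 and 9 reads in Ad-PDK4 and was not tested. Pln, which encodes the SERCA inhibitor phospholamban, had 0 reads in all 6 libraries. At a floor of 3 reads per library, this only shows that no reads were assigned to Pln at this depth. Of its longest annotated transcript, 65.0% was near-identical to sequence of 2 other genes, Cep85l and Gm47644. Whether reads were left unassigned for that reason was not tested.

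The IP3 receptors release calcium from the store and moved apart. Itpr3 lies at chr17:27057304-27122223 (plus strand) and was the most abundant receptor. Its levels were 36.9, 36.6 and 37.1 FPKM in Ad-Con and 27.0, 31.8 and 24.2 FPKM in Ad-PDK4. The control libraries were nearly identical, whereas the Ad-PDK4 libraries were all lower and spread wider. Itpr3 fell by 0.42 on the log2 scale (95% interval -0.64 to -0.21, SE 0.09, limma adjusted p = 0.008), to a fold of 0.746. It passed the test in all 16 alternatives, at log2 fold changes of -0.53 to -0.33. Of all tested genes, 69.9% had a smaller absolute change.

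Itpr1 lies at chr6:108213096-108551109 (plus strand). Its levels were 4.13, 4.42 and 3.99 FPKM in Ad-Con and 5.01, 5.72 and 5.03 FPKM in Ad-PDK4. All Ad-PDK4 libraries were above all Ad-Con libraries. The log2 fold change was 0.32 (95% interval 0.13 to 0.51, SE 0.08, limma adjusted p = 0.016), a fold of 1.25. Without Ad-Con replicate 1 or without Ad-Con replicate 3 it no longer passed, with adjusted p of up to 0.0588 and log2 fold changes of 0.26 to 0.37 over all alternatives. Itpr2, at chr6:146108299-146502223 (minus strand), had 3.86 to 4.05 FPKM in Ad-Con and 3.53 to 3.73 FPKM in Ad-PDK4. Those ranges did not overlap, but the log2 fold change of -0.10 had an interval of -0.28 to 0.07 (adjusted p = 0.292).

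As shares of the summed FPKM of the IP3 receptors, which do not depend on scaling between libraries, Itpr3 made up 82.0 ± 0.690% in Ad-Con and 75.5 ± 1.69% in Ad-PDK4 (mean ± SD, n = 3). Itpr1 made up 9.29 ± 0.468% and 14.4 ± 0.824%. Both shares were fully separated between the groups, with an exact two-sided permutation p = 0.1 for each, the smallest that 3 libraries against 3 allow. The Itpr2 share was 8.73 ± 0.230% and 10.0 ± 0.993% and overlapped between the groups (exact permutation p = 0.2). Per length, the level of Itpr3 was 8.84 ± 0.511 times that of Itpr1 in Ad-Con and 5.25 ± 0.398 times in Ad-PDK4. The deposited gene length exceeds the longest annotated transcript for Itpr1 (18319 against 9870 bases) and Itpr2 (14802 against 11679 bases). With the length of the longest annotated transcript instead, the shares of Itpr3 were 74.3% and 65.7%. Those of Itpr1 were 15.6% and 23.3%, with Itpr3 still the largest share. The ratio of Itpr3 to Itpr1 was then 4.76 ± 0.275 and 2.83 ± 0.214.

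**Figure D2:**
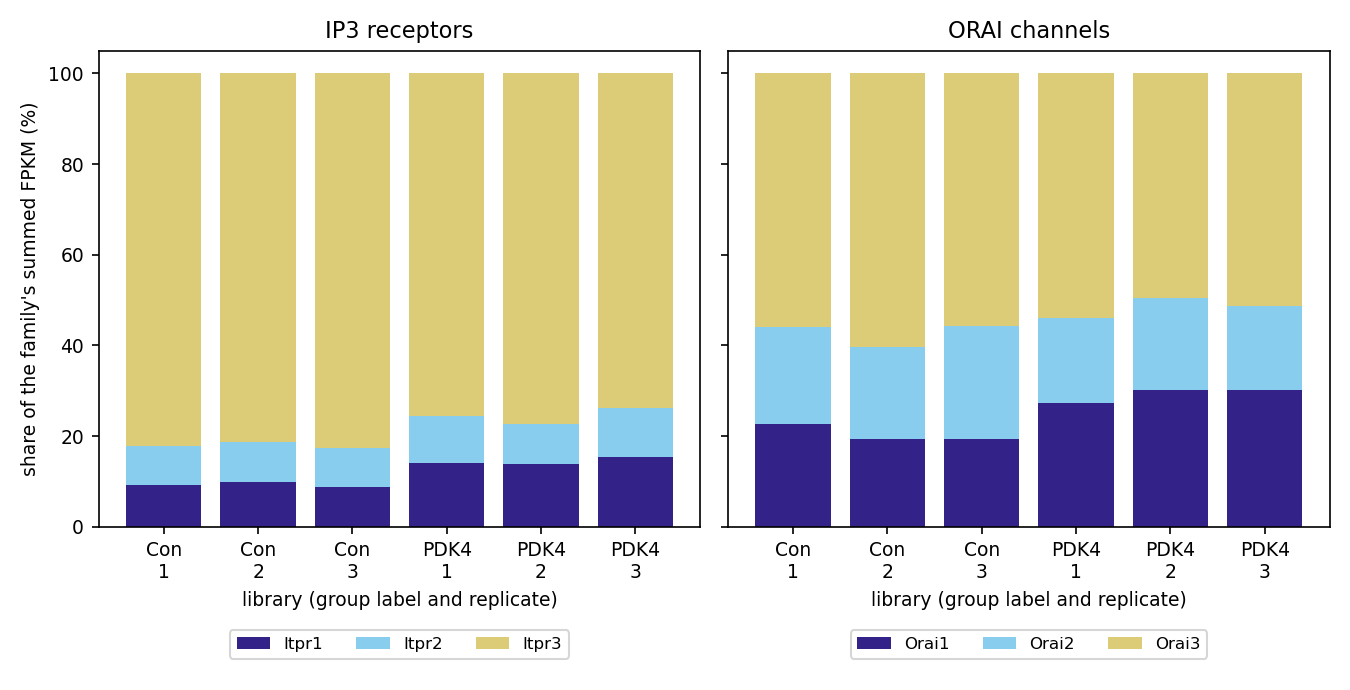
Share of the summed FPKM within the IP3 receptors (left) and within the ORAI channels (right), in percent, for each of the 6 libraries named by group label and replicate. In Ad-PDK4 the Itpr1 segment is larger and the Itpr3 segment smaller than in every Ad-Con library, and the Orai1 segment is larger.

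The store sensors Stim1 and Stim2 did not pass the test. Stim1, at chr7:102267806-102437319 (plus strand), ranged from 8.46 to 9.08 FPKM in Ad-Con and from 7.85 to 9.18 FPKM in Ad-PDK4, so the groups overlapped. Its log2 fold change was -0.02, with an interval of -0.19 to 0.15 (limma adjusted p = 0.842), and its sign turned under some alternatives. Stim2, a sensor that responds to smaller losses of store calcium, lies at chr5:53998499-54121057 (plus strand). It ranged from 8.81 to 9.63 FPKM in Ad-Con and from 7.75 to 8.71 FPKM in Ad-PDK4, a gap that was small beside the spread within groups (log2 fold change -0.13, interval -0.29 to 0.03, adjusted p = 0.175). Stim1 made up 48.6 ± 1.59% of the summed STIM level in Ad-Con and 50.5 ± 3.46% in Ad-PDK4 (exact permutation p = 0.5). With the longest transcript as length these shares became 68.4% and 69.9%, so which sensor was more abundant depends on the length used.

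Orai1 forms the pore of the store-operated channel and showed the largest change of the 9 tested genes. The gene lies at chr5:123015074-123030456 (plus strand). It had 316, 217 and 228 reads in Ad-Con and 338, 400 and 490 reads in Ad-PDK4, or 6.76, 5.38 and 5.48 FPKM against 8.09, 9.96 and 9.67 FPKM. The lowest Ad-PDK4 library was above the highest Ad-Con library. The means were 5.88 ± 0.771 and 9.24 ± 1.0 FPKM, a log2 fold change of 0.65 (95% interval 0.38 to 0.91, SE 0.11, limma adjusted p = 0.003) and a fold of 1.56. Orai1 passed the test in all 16 alternatives, at log2 fold changes of 0.58 to 0.75 and adjusted p of at most 0.0162. Of all tested genes, 83.0% had a smaller absolute change.

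The other ORAI channels did not change with Orai1 beyond the spread of the libraries. Orai3, the most abundant of the family, had 16.4 ± 0.628 FPKM in Ad-Con and 16.3 ± 0.309 FPKM in Ad-PDK4 (log2 fold change -0.02, interval -0.14 to 0.11, limma adjusted p = 0.839). Orai2 had 6.33 ± 0.661 and 6.08 ± 0.618 FPKM (log2 fold change -0.06, interval -0.30 to 0.18, adjusted p = 0.690). The signs of both turned under some alternatives. As a description added after the levels were seen, Orai1 made up 20.5 ± 1.89% of the summed ORAI level in Ad-Con and 29.2 ± 1.56% in Ad-PDK4. The ratio of Orai1 to Stim1 was 0.679 ± 0.105 in Ad-Con and 1.08 ± 0.147 in Ad-PDK4, with no overlap between the groups. With the longest transcript as length it was 0.350 ± 0.0543 and 0.558 ± 0.0756, again without overlap, so whether Orai1 exceeds Stim1 depends on the length used. Saraf, which encodes a factor that dampens store-operated entry, had 67.7 ± 1.8 and 72.5 ± 0.935 FPKM and did not pass (log2 fold change 0.10, adjusted p = 0.107), except when rescaled to TPM (adjusted p = 0.0360).

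The plasma membrane pumps expel calcium from the cell. Atp2b1, at chr10:98914406-99026143 (plus strand), ranged from 7.27 to 7.62 FPKM in Ad-Con and from 7.71 to 8.03 FPKM in Ad-PDK4. The ranges did not overlap, but the log2 fold change of 0.08 had an interval of -0.05 to 0.22 (limma adjusted p = 0.286). Atp2b4, at chr1:133699457-133801041 (minus strand), was nearly silent, with 12, 16 and 5 reads in Ad-Con and 14, 15 and 12 reads in Ad-PDK4. At 0.0484 ± 0.0259 and 0.0590 ± 0.0132 FPKM it lay under the filter and was not tested. Atp2b1 made up 99.4 ± 0.337% of the summed level of this pair in Ad-Con and 99.3 ± 0.178% in Ad-PDK4 (exact permutation p = 0.7).

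Mcu, the pore of the mitochondrial calcium uniporter, lies at chr10:59446984-59616692 (minus strand). It ranged from 6.75 to 7.26 FPKM in Ad-Con and from 6.70 to 7.68 FPKM in Ad-PDK4. The groups overlapped, and the log2 fold change of 0.03 had an interval of -0.14 to 0.20 (limma adjusted p = 0.772), with a sign that turned under some alternatives. Its partners Mcub and Smdt1 did not pass either. Mcub, a pore subunit that lowers uniporter activity, had a log2 fold change of 0.17 (adjusted p = 0.0915), and Smdt1, which encodes the scaffold EMRE, of 0.14 (adjusted p = 0.136). Mcub passed when the values were rescaled to TPM (adjusted p = 0.0464), and Smdt1 passed without Ad-PDK4 replicate 3 (adjusted p = 0.0192).

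**Figure D3:**
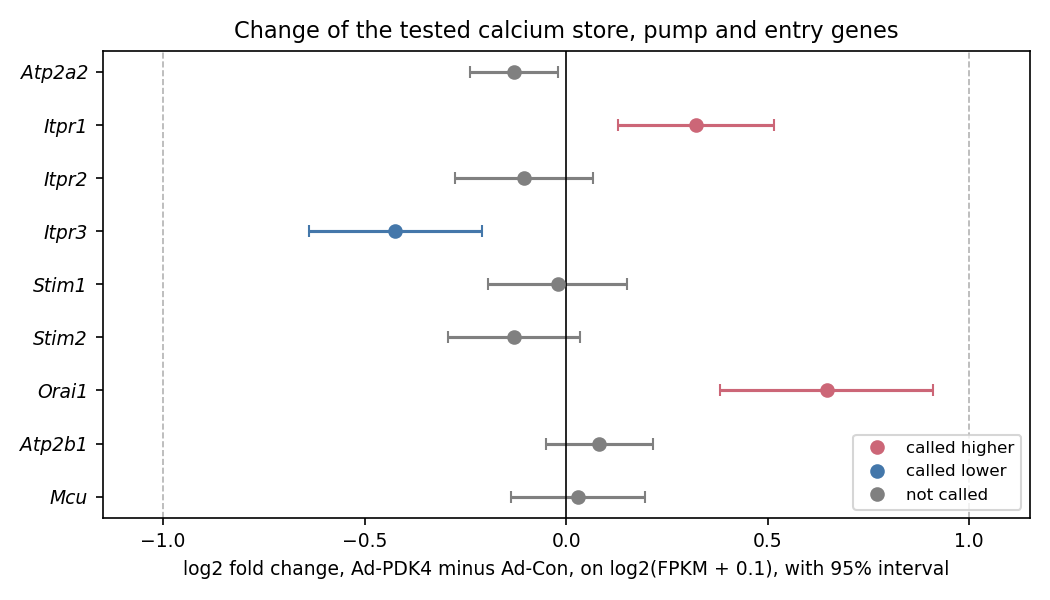
Log2 fold change of the 9 tested genes (horizontal axis, Ad-PDK4 minus Ad-Con on log2(FPKM + 0.1)), with the 95% interval from limma as a horizontal bar and dashed lines at a 2-fold change. Orai1 at 0.65 and Itpr1 at 0.32 lie right of 0, Itpr3 at -0.42 lies left of it, and no point reaches a dashed line.

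Because FPKM is per length, the levels of the genes can be ordered within a group. In Ad-Con the order was Atp2a2, Itpr3, Stim2, Stim1, Atp2b1, Mcu, Orai1, Itpr1, Itpr2 and Atp2b4. The libraries overlapped between Stim2 and Stim1, between Mcu and Orai1, and between Itpr1 and Itpr2. In Ad-PDK4 Orai1 moved from place 7 to place 3, where its libraries overlapped with those of Stim1, and Stim1, Stim2 and Atp2b1 also overlapped in turn. The places below them were held by Mcu, Itpr1, Itpr2 and Atp2b4, in that order and without overlap. With the longest transcript as length, Atp2a2 and Itpr3 stayed in the first places and Itpr2 and Atp2b4 in the last, but Stim1 and Mcu came next after Itpr3 in both groups, and Orai1 moved from place 8 to place 6. The deposited levels ranged from above those of 94.6% of the tested genes for Atp2a2 to above those of 35.5% for Itpr2.

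Among the genes of the fixed list, reads shared with near-identical sequences could affect few of the values. At 98% identity over at least 100 bases, 6.38% of the longest Atp2a2 transcript matched a processed pseudogene with 0 to 2 reads per library, and 6.56% of that of Atp2b1 matched an unprocessed one with 0 or 1 read. Itpr1 and Itpr3 overlap antisense genes with 0 to 9 reads per library. Whether the reads were counted by strand is not given in the sources used here.

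A list of 89 other calcium genes in 10 roles was then read in the same fit. Of the 61 that were tested, 9 were higher and 12 lower in Ad-PDK4, and the median log2 fold change was -0.03. In each direction this is a smaller share of calls than among all tested genes. Rescaled to TPM the balance turned, with 12 higher and 9 lower. All tested genes moved the same way, from 2928 higher and 2798 lower to 3361 and 2430. The remaining 28 genes were under the filter. The counts by role below are read against 21.8% higher and 20.8% lower among all tested genes. Of the 61 genes, 3 passed with a change of at least 2-fold, all of them higher in Ad-PDK4, against 3.95% of all tested genes that did so upwards. These were Slc24a3, Cacna1c and Cacna1g. The Ad-Con mean of Cacna1g, 0.257 FPKM, was under the filter, so this gene was tested only through its level in Ad-PDK4. Rises and falls among the genes under the filter are not counted here. With a pseudocount of 1 the log2 fold changes of Cacna1c and Cacna1g were 0.91 and 0.78, under 2-fold, and only Slc24a3 stayed above it, at 1.13.

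Of 5 tested voltage-gated channel genes, 2 were higher and 1 lower, against 21.8% and 20.8% of all tested genes. Of the 2 higher genes, Cacna1g was tested only through its level in Ad-PDK4, so these counts are not a balanced reading of the role. Cacna1c, the pore of the L-type channel that carries calcium into contracting smooth muscle, had 379, 370 and 332 reads in Ad-Con and 979, 1043 and 1149 reads in Ad-PDK4. The groups stood far apart (0.912 ± 0.0713 against 2.60 ± 0.187 FPKM, log2 fold change 1.42, SE 0.13, limma adjusted p = 8.3e-05). Cacna1g, a T-type channel pore, had 61, 48 and 38 reads in Ad-Con and 194, 236 and 249 reads in Ad-PDK4 (log2 fold change 1.83, SE 0.26, adjusted p = 9.3e-04). Its level remained low, at 0.257 ± 0.0457 and 1.16 ± 0.147 FPKM. Cacna1h, another T-type pore, went the other way, with 76, 80 and 81 reads in Ad-Con and 30, 33 and 11 reads in Ad-PDK4. At 0.436 ± 0.0462 and 0.138 ± 0.0760 FPKM Cacna1h was under the filter and not tested. Cacnb2, at 0.508 ± 0.0643 and 0.372 ± 0.0412 FPKM, was also under it and lower in every Ad-PDK4 library. Cacna1d was under it too, and its groups overlapped. Cacna2d1, an accessory subunit of these channels, fell from 6.38 ± 0.273 to 4.31 ± 0.0933 FPKM (log2 fold change -0.56, adjusted p = 4.4e-04).

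Among plasma membrane pumps and exchangers, 2 genes were tested. Slc24a3, a potassium-dependent sodium-calcium exchanger, had 4.92, 5.65 and 4.77 FPKM in Ad-Con and 12.7, 12.7 and 11.6 FPKM in Ad-PDK4. Every Ad-PDK4 library was more than 2 times as high as any Ad-Con library (log2 fold change 1.26, SE 0.08, limma adjusted p = 1.6e-05). Slc8a1, the main sodium-calcium exchanger of smooth muscle and heart, had 2.39 ± 0.363 and 1.92 ± 0.20 FPKM and did not pass (log2 fold change -0.29, adjusted p = 0.129). Its deposited gene length is 2934 bases, against 18464 for its longest annotated transcript, so its level depends on the length used.

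Of 4 tested genes among ryanodine receptors and IP3 receptor partners, 1 was higher and none was lower. Ahcyl1, which encodes IRBIT, a protein that binds IP3 receptors and competes with IP3, rose from 27.0 ± 0.670 to 30.5 ± 0.759 FPKM (log2 fold change 0.18, limma adjusted p = 0.0188). That call was lost with quantile normalization and when Ad-Con replicate 1, Ad-Con replicate 3 or Ad-PDK4 replicate 1 was left out, with adjusted p of up to 0.0861. The ryanodine receptors, the store release channels of heart and skeletal muscle, were close to absent. Ryr1 had 1 to 8 reads per library, Ryr3 3 or fewer, and Ryr2 had 0 reads in all 6. Among the partners of store-operated entry and the TRPC channels, 1 of 5 tested genes was lower and none was higher. Efcab4a, a cytosolic regulator of ORAI channels also known as Cracr2b, fell from 2.02 ± 0.0514 to 1.49 ± 0.258 FPKM (log2 fold change -0.43, adjusted p = 0.0461), a call that was lost in 9 of 15 alternatives, among them the removal of any library except Ad-PDK4 replicate 2, with adjusted p of up to 0.119. Trpc1, a channel linked to store-operated entry, had 53 to 62 reads in Ad-Con and 60 to 74 reads in Ad-PDK4 and was under the filter.

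Of 11 mitochondrial genes, 3 were higher, 1 was lower and 7 did not pass, shares that are read against the 21.8% and 20.8% of all tested genes. Letm1, an ion exchanger of the inner membrane, rose from 4.27 ± 0.409 to 6.0 ± 0.0745 FPKM (log2 fold change 0.48, limma adjusted p = 0.003). Vdac1 and Vdac3, which encode pores of the outer membrane, moved apart. Vdac1 fell from 114 ± 0.926 to 79.6 ± 1.64 FPKM (log2 fold change -0.52, adjusted p = 5.4e-05), and Vdac3 rose from 18.1 ± 0.363 to 21.7 ± 0.810 FPKM (log2 fold change 0.26, adjusted p = 0.005).

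Upstream of the IP3 receptors, 1 of 11 tested genes of phospholipase C and IP3 metabolism was higher and 2 were lower. Among all tested genes, 21.8% were higher and 20.8% lower. Plcg1 and Plcg2 encode phospholipases that act below tyrosine kinases. Plcg1 fell from 26.9 ± 1.30 to 15.3 ± 1.01 FPKM (log2 fold change -0.81, limma adjusted p = 5.4e-05) and Plcg2 from 12.5 ± 0.136 to 7.60 ± 1.04 FPKM (log2 fold change -0.72, adjusted p = 7.4e-04). Plcb1, which encodes a phospholipase that acts below G protein-coupled receptors, rose from 0.466 ± 0.0814 to 0.921 ± 0.0618 FPKM (log2 fold change 0.86, adjusted p = 0.0178). The Plcb1 call was lost when Ad-Con replicate 1, Ad-PDK4 replicate 1 or Ad-PDK4 replicate 3 was left out, with adjusted p of up to 0.0691. The Ad-Con mean of Plcb1 was under the filter, so it was tested only through its level in Ad-PDK4. Plcb3 and Plcb4, more abundant genes of the same class, did not pass (limma log2 fold change -0.06 and 0.05, adjusted p = 0.445 and 0.663).

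In the endolysosomal stores, 2 of 3 channel genes were lower and none was higher, against 20.8% and 21.8% of all tested genes. Tpcn1, a two-pore channel, fell from 30.2 ± 1.96 to 17.9 ± 1.63 FPKM (log2 fold change -0.76, adjusted p = 2.1e-04), and Mcoln1, the lysosomal channel TRPML1, fell from 20.6 ± 0.752 to 14.7 ± 0.659 FPKM (log2 fold change -0.48, limma adjusted p = 4.0e-04). Of 6 tested genes for calcium-binding proteins and leak channels of the store, 1 was higher and 1 lower. Calr, the store buffer and chaperone calreticulin, rose from 171 ± 0.567 to 200.3 ± 6.12 FPKM (log2 fold change 0.22, adjusted p = 0.004), and Calu, the calcium-binding protein calumenin, fell from 127 ± 2.66 to 89.2 ± 5.42 FPKM (log2 fold change -0.51, adjusted p = 2.5e-04).

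Downstream of cytosolic calcium, 4 of 13 tested genes were lower and none was higher, against 20.8% and 21.8% of all tested genes. Rcan2, a regulator of the phosphatase calcineurin, fell from 9.05 ± 0.582 to 6.45 ± 0.264 FPKM (log2 fold change -0.48, limma adjusted p = 0.001). Among the other SERCA pumps, their inhibitors and the secretory pathway pumps, only 1 of 6 genes was tested, and it did not pass.

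**Figure D4:**
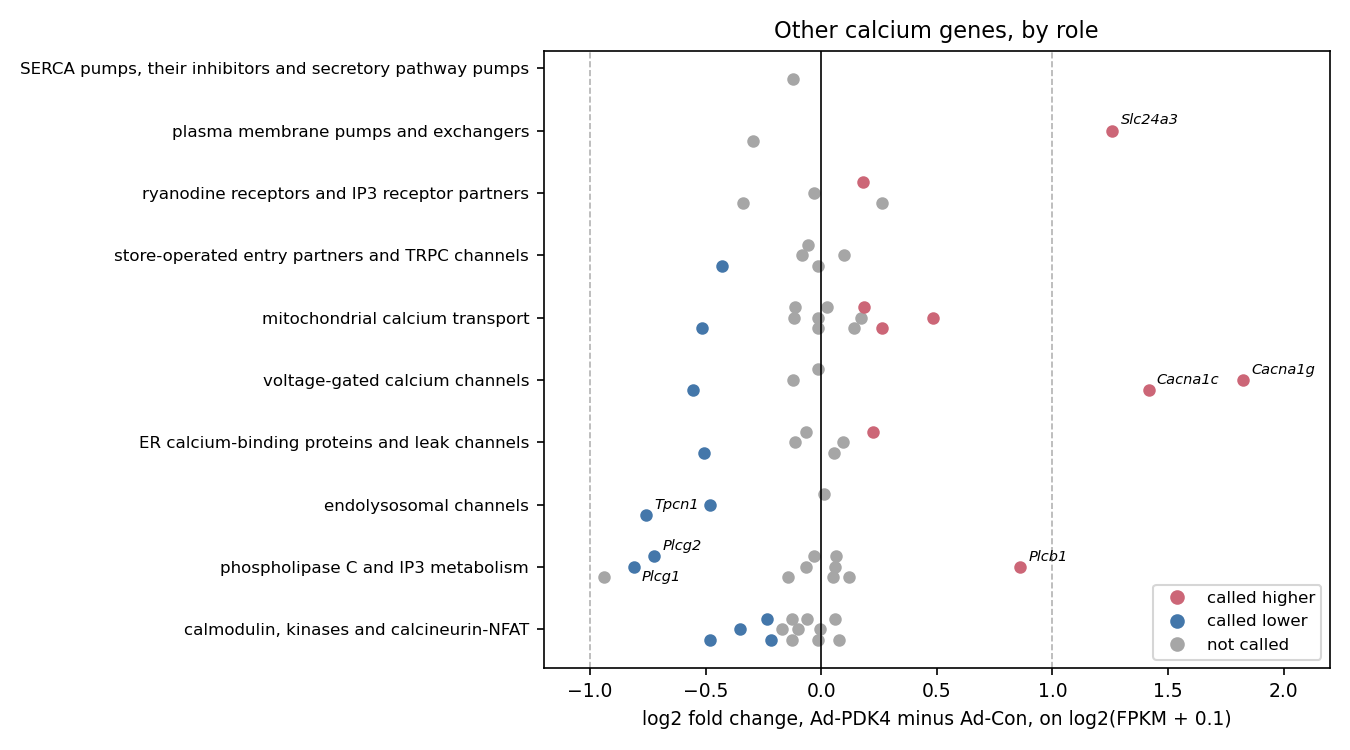
Log2 fold change (horizontal axis, Ad-PDK4 minus Ad-Con on log2(FPKM + 0.1)) of the 61 tested genes of the calcium list, 1 point per gene in rows by role, coloured by whether the gene passed the test, with dashed lines at a 2-fold change. The points right of the right-hand dashed line are Cacna1g at 1.83, Cacna1c at 1.42 and Slc24a3 at 1.26, and no point lies left of the left-hand line.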

How the data were processed

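RNA-seq libraries were grouped by the treatment label (Ad-Con or Ad-PDK4). Per the labels' processing notes, the authors used CASAVA 1.8, fastp, HISAT2 2.0.5, featureCounts 1.5.0-p3 and DESeq2 1.20.0. Those notes name GRCm39, but 98.3% of 54409 matched genes in the deposited table had the GENCODE M21 coordinates of GRCm38, which are used here. The labels name a SMARTER kit and the methods of the study an NEBNext Ultra kit, so the kit is uncertain.

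The authors deposited FPKM values per gene and library, scaled by the gene length and by a library size. That size was close to the reads assigned to genes but not equal to them. Rescaling by the median of ratios left the values almost unchanged (Orai1 log2 fold change 0.6458 against 0.6459), so that alternative could hardly alter a result. Values times the deposited gene length gave whole reads within 0.01 reads for 100% of values, so depth is known. FPKM is no count, so limma 3.58.1 (R 4.3.3, trended and robust moderation) was fitted to log2(FPKM + 0.1) without covariates over 13423 genes with a mean of at least 0.5 FPKM, with Benjamini-Hochberg adjustment over all of them. Fold changes are on that scale, which understates changes of low genes. Genes passed at adjusted p below 0.05, and a second rule added a fold of at least 2. Shares within families were compared by exact two-sided permutation tests. The script was tested on simulated data. Alternatives covered pseudocounts, filters, scalings, limma-voom on the recovered reads, a replicate block and leaving out each library.

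The 10 genes, the calcium list and the markers were chosen with earlier results of these data known. The genes named were all 10, Pdk4, direct paralogs and partners, and up to 2 rises and 2 falls per role, of which some genes are not reported here. Protein sequences were not used here.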

Additional observations from a re-analysis of the deposited data

How the results depend on the processing

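Across 16 alternatives, Orai1 stayed higher and Itpr3 lower in each, and no tested gene of the 10 reached a 2-fold change. The number of these genes that passed as higher was 1 with a minimum mean of 5 FPKM, where Itpr1 fell under the filter and 7 genes were tested, and 1 to 2 when single libraries were left out (1 where the control library with number 1 or 3 was dropped). The number that passed as lower was 2 with limma-voom and 2 with quantile normalization, where Atp2a2 was added, and 1 whichever library was left out. Leaving out libraries gave 6 to 9 higher and 9 to 13 lower genes in the calcium list, and rescaling to TPM gave 12 and 9 against the 9 and 12 reported. Among all tested genes, leaving out libraries gave 2314 to 2682 higher and 2156 to 2699 lower. With TPM these counts were 3361 and 2430, against 2928 and 2798 in the main fit. The log2 fold change of Cacna1g ranged from 0.78 (pseudocount of 1) to 2.16 (limma-voom). The difference in share between groups, in percentage points, moved for Itpr1 from 5.13 to 7.77 with reads not divided by length and to 7.63 with the longest transcript (chosen after seeing the data), and for Itpr3 from -6.46 to -8.92 and -8.67. With single libraries left out it ranged from 4.66 to 5.41 for Itpr1, from 0.954 to 1.89 for Itpr2, from 0.0352 to 3.46 for Stim1 (the lowest without the Ad-PDK4 library numbered 2, the highest without that numbered 3), with Stim2 as its mirror image, from -7.30 to -5.61 for Itpr3 and from -0.275 to 0.0620 for Atp2b1 (-0.0620 to 0.275 for Atp2b4). For that pair the sign turned when the control with number 3 was left out. Some log2 fold changes close to 0 changed sign. Stim1 was at 0.0193 with TPM and between -0.0733 and 0.0384 with libraries left out. Mcu was at -0.0217 with quantile normalization and between -0.0219 and 0.0757 with libraries left out. With TPM, Orai3 was at 0.0254. With libraries left out, Orai2 lay between -0.136 and 0.0135 and Orai3 between -0.0473 and 0.00328. The cause of these changes was not tested.

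No pairing by replicate number was seen. Same-numbered libraries had correlations of -0.046, -0.031 and -0.001 in their deviations from the group means. With 3 libraries a group, these values cannot exclude a shared culture or preparation. With the replicate block, 2 of the genes were higher and 1 lower as before, the calcium list had 8 higher and 9 lower genes, all tested genes 2759 higher and 2626 lower, and the share difference of Itpr3 was -6.46. The intervals given reflect the spread between the 3 libraries of each group and do not measure the sequencing depth.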
